A study of Mus musculus with 8 samples.

Results

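Neuroendocrine mimetic cells are thymic epithelial cells that carry the expression programme of hormone-secreting cells, and 89 candidates for them were found among 6677 cells from the thymus of 16-week-old C57BL/6 mice. They made up 2.12% of the 4208 cells that met an epithelial rule at that age (95% exact binomial interval 1.7 to 2.6) and 89 of the 9953 cells of the whole series. The members were chosen by their own RNA counts. An epithelial cell had at least 3 unique molecular identifiers (UMIs, the counted RNA molecules) of Epcam, Krt8, Krt18 and Krt5 together, and more of these than of the fibroblast genes Col1a1, Col1a2, Col3a1 and Dcn together. A member was an epithelial cell with fewer than 2 UMIs of Aire, with the cortical genes Psmb11 and Prss16 below 0.1% of its UMIs, and with at least 2 of the 5 rule genes Chga, Insm1, Neurod1, Stxbp5l and Snap25 detected. The values of these genes are therefore given as a description only. The comparison group was the 1555 epithelial cells with 2 or more Aire UMIs, called Aire cells below.

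The medulla of the thymus displays proteins of peripheral tissues to developing T cells, and medullary epithelial cells (mTEC) that make the regulator Aire transcribe many such genes at random. Some mTEC go on to take up a whole programme of a peripheral cell type and are then called mimetic cells. An endocrine programme is built by transcription factors such as Insm1, Neurod1 and Rfx6, stores peptides with chromogranins and secretogranins in dense-core granules, cuts and amidates the peptides with prohormone convertases and Pam, and releases them through SNARE proteins such as Snap25 when calcium enters the cell.

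The cells were wild-type thymic stroma, depleted of CD45+ cells and sorted as CD45-Ter119- cells of both EpCAM1+ and EpCAM1- gates in a mixture, stained with oligonucleotide-coupled reagents and loaded as 1 pool on 2 wells, so each well is a library of the same pooled cells. Every cell thus has RNA counts and counts of 27 antibody-derived tags (ADTs). The wells held 1939 and 4738 cells with 21281389 and 45480790 UMIs, and every cell in the table had at least 2000 UMIs. A second pool came from 1-week-old mice, where the same rule found 12 and 3 members. With 1 pool at each age, no test between conditions could be made: each value is given for both wells, an SD is over n = 2 wells, and the intervals cover counting error only. No member shared its barcode with another library, against 15 barcodes that occurred in more than 1 library.

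The first well gave 37 members, or 3.04% of its 1217 epithelial cells, and the second gave 52, or 1.74% of 2991. The shares of the wells differed with an SD of 0.92 percentage points (n = 2), and their binomial intervals met only at the edge, at 2.15 to 4.17% and 1.3 to 2.27%. Members had a median of 9496 and 7451 UMIs in the wells, Aire cells 9575 and 8111, and the remaining 2380 Aire-low epithelial cells 5182 and 4758. Members were thus about as deeply counted as Aire cells and more deeply than the other Aire-low cells.

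The label held for a small share of the members only. Of the 89, 79 had exactly 2 of the 5 rule genes, and in 61 of these (77.2%) the pair was Chga, a granule protein, with Insm1, a zinc-finger factor of endocrine progenitors. In 42 of those 61 cells each gene was seen as 1 UMI. The other 10 members had 3, 4 or 5 rule genes: 3 cells had 3, 5 cells had 4 and 2 cells had 5. Neurod1, an endocrine bHLH factor and one of the 4 markers of the label, was found in 2 members, both of them cells with 5 rule genes. Resp18, a granule protein that the rule did not use, was found in 29 members (32.6%, 23 to 43.3), in 24.3% of Aire cells and in 11% of 2264 fibroblast cells, which should lack it. Thinned to 2000 UMIs per cell, the shares were 16.9% in members, 8.68% in Aire cells and 3.27% in fibroblast cells. Resp18 was found in 8 of the 10 cells and in 21 of the 79. Below, the 10 cells are called multi-gene members and the 79 are called 2-gene members. Only the first are described as neuroendocrine-like, and 1 of them, cell 8 below, does not bear the name out.

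Just outside the limits of the rule lay many cells. Among Aire-low epithelial cells 594 had exactly 1 rule gene and 1786 had none. Of the members, 46 had 1 Aire UMI and 43 had 0, while 498 Aire cells had exactly 2 Aire UMIs and 33 of these had 2 or more rule genes. Of the fibroblast cells, 1160 held at least 1 Aire UMI, and 471 of them held 2 or more. The cortical limit alone kept out 3 cells, and 6 members had only 3 to 5 epithelial UMIs.

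Rule genes were detected together more often in Aire cells than in the Aire-low cells among which the members were counted. At least 2 of the 5 were found in 3.6% of Aire-low cells (2.9 to 4.42), in 14.9% of Aire cells (13.2 to 16.8) and in 1.55% of fibroblast cells (1.08 to 2.14). When each cell was thinned to 2000 UMIs, the shares were 0.891% (0.559 to 1.35), 2.12% (1.47 to 2.97) and 0.177% (0.0482 to 0.452). The order of the groups was the same at equal depth. At least 3 were found in 0.405% of Aire-low cells (0.194 to 0.744), in 1.74% of Aire cells (1.15 to 2.52) and in 1 fibroblast cell, 0.0442%. After thinning, the Aire-low and Aire shares with at least 3 rule genes were 0.203% (0.0658 to 0.472) and 0.257% (0.0701 to 0.657), and these intervals overlapped.

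**Figure D1:**
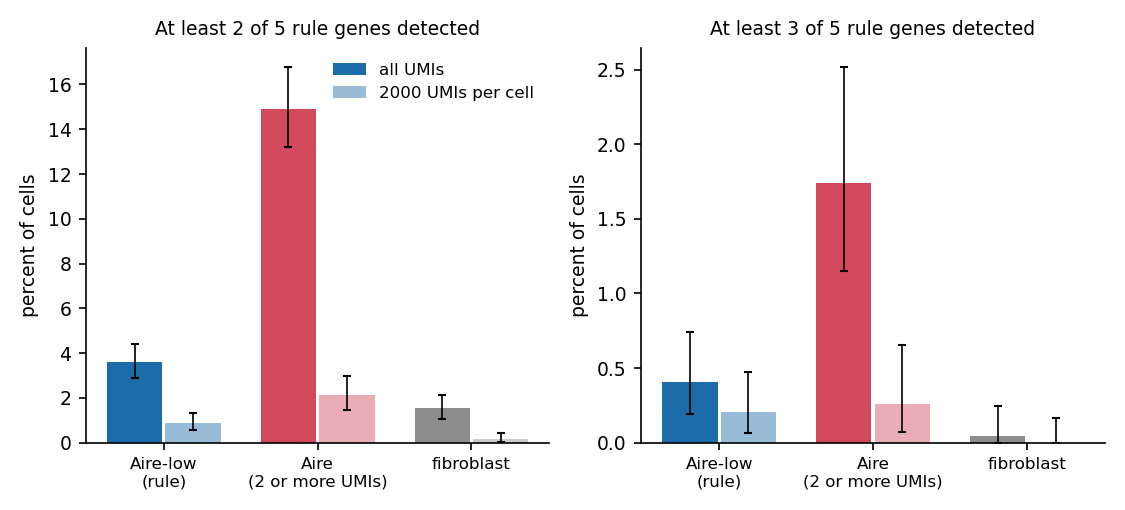
Percent of cells (y axis) with at least 2 (left) or at least 3 (right) of the 5 rule genes in Aire-low epithelial cells, Aire cells and fibroblast cells of the 16-week wells together, with all UMIs (dark bars) and with each cell thinned to 2000 UMIs (light bars). Error bars are 95% exact binomial intervals; Aire cells stand highest at 14.9% and 1.74% before thinning.

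The 100 bases before the start are shown for Chgb, Scg2 and Pcsk1, the granule genes outside the rule that were higher in members, and for Chga, the granule gene that chose the members. Capitals mark TGACGT on either strand, the core of the cyclic-AMP response element, whose full palindrome is TGACGTCA. The sequences are from RefSeq on the mouse build GRCm38.p6, written on the strand of the gene: Chga on the plus strand at chr12:102554841-102554940, Chgb on the plus strand at chr2:132781542-132781641, Scg2 on the minus strand at chr1:79440027-79440126, and Pcsk1 on the plus strand at chr13:75089757-75089856.
Chga: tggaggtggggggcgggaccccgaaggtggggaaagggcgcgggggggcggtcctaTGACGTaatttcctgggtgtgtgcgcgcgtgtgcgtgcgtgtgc
Chgb: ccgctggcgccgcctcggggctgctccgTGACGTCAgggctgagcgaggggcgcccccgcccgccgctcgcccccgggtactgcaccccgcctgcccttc
Scg2: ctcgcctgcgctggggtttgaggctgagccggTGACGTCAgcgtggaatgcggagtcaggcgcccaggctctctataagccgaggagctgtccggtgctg
Pcsk1: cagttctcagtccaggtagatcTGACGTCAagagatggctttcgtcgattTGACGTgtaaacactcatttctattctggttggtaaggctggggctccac

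Of the 14 genes in the granule list, 12 had an entry among 27025 genes with a RefSeq promoter, taken as 250 bases before to 50 after the start. TGACGTCA was present in 3 of the 12, Chgb, Scg2 and Pcsk1, against 2.03% of all genes. TGACGT, which the longer motif contains, was present in 5 of the 12 (also Chga and Scg5) against 8.37%. The E-box CAGCTG was present in 5 of the 12 against 18.3%, and the E-box CAGATG in none against 19.2%. The box TATAAA was present in 1, Chga, against 15.7%. A match describes letters only and is no evidence of binding.

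Transcription factors of the endocrine programme were concentrated in the multi-gene members. Levels are UMIs summed over a group in a well, scaled to 1000000 UMIs of that group (CPM), and a difference is the log2 of the group over Aire cells of the same well. A gene was called when it differed at least 4-fold in the same direction in both wells and had at least 20 UMIs over both groups. With that rule, 41 of 18852 genes were higher (0.217%) and 70 lower (0.371%) in the 89 members. Among multi-gene members, 293 of 18739 genes were higher (1.56%) and 50 lower (0.267%), and in the 2-gene members 12 of 18815 were higher (0.0638%) and 54 lower (0.287%). These counts include the rule genes and Aire. The cells are few: of the 293 genes, 116 were seen in at least 5 of the 10 cells and 177 in fewer than 5. In 51 of them a single cell held most of the UMIs, and for 142 the counting interval cleared 0 in each well.

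Of 18 listed transcription factors outside the rule, 12 could be compared. In all members 4 were higher and 0 lower, in the multi-gene members 8 were higher and 0 lower, and in the 2-gene members 0 of 11 were called. The median log2 difference of the 12 was 1.92 in all members and 4.35 in the multi-gene members, against 0.04 and 0.77 over all compared genes with genes at 0 set to their bound of 3 counts. Rfx6, a winged-helix factor of islet and gut endocrine cells, had 21.8 and 10.9 CPM in members of the 2 wells and 2.45 and 0.537 CPM in Aire cells, a log2 difference of 3.15 and 4.34. Its 17 UMIs in members lay in 7 cells, 6 of them multi-gene members, and its thinnest value was 6 UMIs in the second well. St18, a zinc-finger factor of endocrine cells, had 57.5 and 23.5 CPM in members and 5.89 and 4.7 in Aire cells, a difference of 3.29 and 2.32. It was found in 8 of the 10 multi-gene members and in 5 of the 79.

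Myt1, a relative of St18, differed by 2.79 and 2.64, and Foxa2, a forkhead factor of endoderm and islets, by 4.19 and 2.36. Both rested on 10 or fewer UMIs in members. Calls added in the multi-gene members included Prox1 (3.64 and 4.04, found in 6 cells), Etv1 (5.29 and 3.71, 6 cells) and Rfx3 (2.86 and 2.14, 4 cells). Etv1 was also found in 53.7% of fibroblast cells, at 150 CPM against 275 CPM in the 10 cells and 13.6 CPM in Aire cells. These named factors thus stood higher in a subset of the cells each, and none of them was in all 10. Neurog3, Pax4, Lmx1a, Insm2 and Nkx6-1 had no UMI in any of the 89 members, which allows a share of up to 4.06% of such cells with a UMI and sets no limit on cells expressing them.

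Isl1 and Insm1 were found in many Aire cells too, though their levels were also highest in the multi-gene members. Over both wells, Isl1 had 343 CPM in the multi-gene members, 111 in the 2-gene members and 77.8 in Aire cells. Insm1 had 367, 119 and 141 CPM in the same order. Isl1, a LIM factor of islets, had 129 and 163 CPM in members and 67.4 and 82.1 CPM in Aire cells, and was found in 44.9% of members and 41% of Aire cells. Insm1 itself, a rule gene, had 139 and 174 CPM in members and 192 and 119 CPM in Aire cells, where it was found in 40.6% of cells. In fibroblast cells, which serve as background, Isl1 was found in 13.2% and Insm1 in 9.81%, and in the other Aire-low cells in 45% and 11.9%.

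Granule cargo and prohormone processing was the neuroendocrine list with the largest upward difference in summed level. Outside the rule gene Chga, 3 of 13 listed genes were higher in all members and 9 of 13 in the multi-gene members, while 0 of 13 were called in the 2-gene members. The summed level of the 13 genes stood 2.25 and 1.78 above Aire cells on the log2 scale in all members (mean 2.02, SD 0.33, n = 2). It stood 4.99 and 3.46 above in the multi-gene members and 0.04 and 0.79 above in the 2-gene members. The first-well value of the multi-gene members rested mostly on cells 1 and 2, described below. They held 62 and 75 of the 158 Chgb UMIs and 65 and 63 of the 128 Scg2 UMIs of that group and well. The median gene differed by 1.84 in all members and 4.20 in the multi-gene members.

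Chgb (ENSMUSG00000027350, plus strand, chr2:132781278-132795079 on GRCm38), the chromogranin that packs peptides in dense-core granules, had 313 and 157 CPM in members against 13.1 and 8.33 CPM in Aire cells (log2 4.58 and 4.24; counting interval of the pooled value 4.3 to 4.85). Of its 245 UMIs in members, 158 and 82 in the wells came from multi-gene members, where it was found in 7 of 10 cells. It was found in 3 of the 79 2-gene members and in 2.77% of Aire cells. Scg2, a secretogranin, had 256 and 90.5 CPM against 42.3 and 10.1 CPM (2.59 and 3.16) and was found in 8 members, 5 of them multi-gene. Pcsk1, the convertase that cuts prohormones, differed by 3.14 and 2.43 on 8 and 3 UMIs, all in 4 multi-gene members.

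Resp18 had 291 and 331 CPM in members and 85.8 and 69.1 CPM in Aire cells. Its log2 difference of 1.76 and 2.26 missed the 4-fold limit in the first well. It was higher in the multi-gene members, at 1519 and 803 CPM (4.15 and 3.54), as were Scg5, a chaperone of convertase 2 (4.21 and 3.11, 7 cells), and Pam, the peptide-amidating enzyme (3.45 and 2.19, all 10 cells, but also 57.2% of Aire and 71.6% of fibroblast cells). Ptprn and Ptprn2, membrane proteins of the granule, and Scg3 were called as well, each on 1 or 2 UMIs in 1 of the wells. Pcsk2 had no UMI in the 10 cells, and Pcsk1n, an inhibitor of Pcsk1, had 85 UMIs in the first well, in 2 cells, and 0 in the second.

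**Figure D2:**
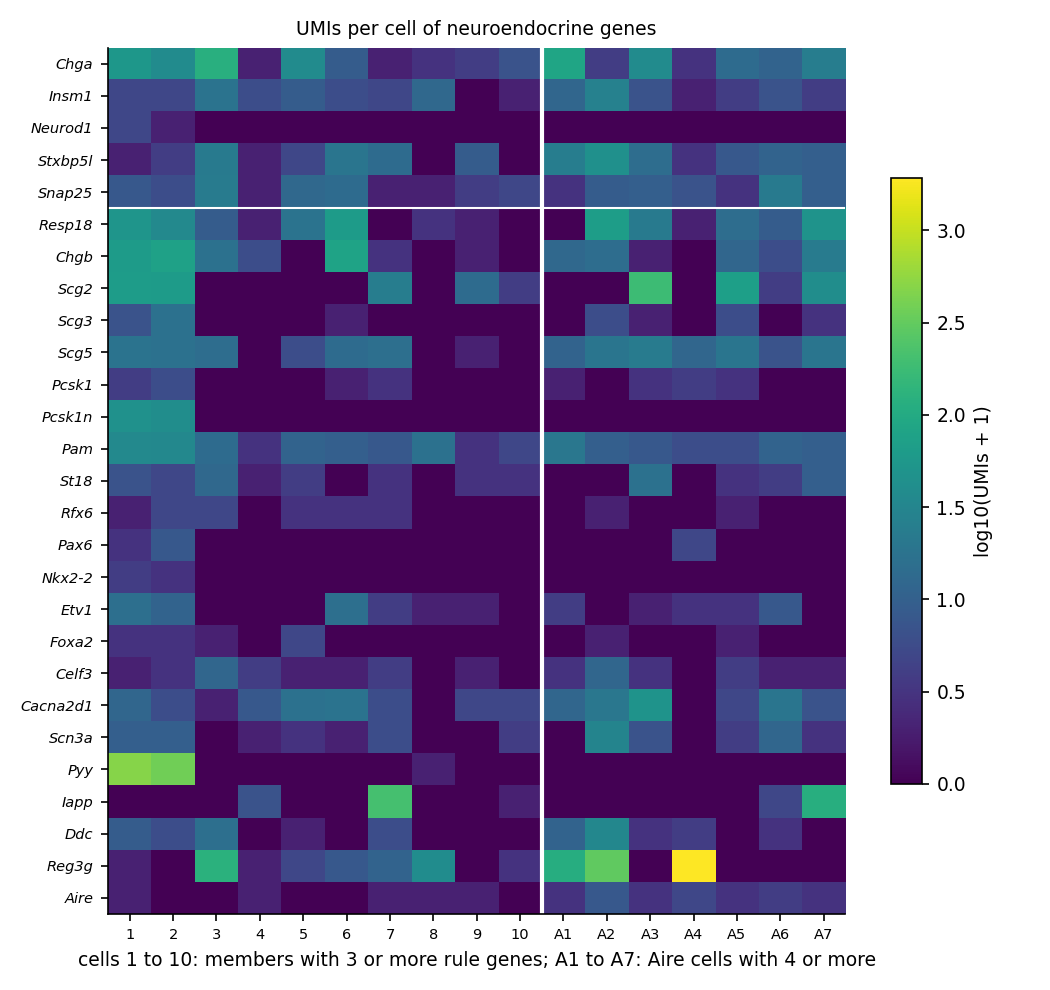
UMIs per cell on a log10(UMIs + 1) colour scale for 27 genes (rows) in the 10 multi-gene members (columns 1 to 10) and in the 7 Aire cells with at least 4 rule genes (A1 to A7). The white lines set off the Aire cells and the 5 rule genes; Chga and Pam show in every one of the 10 columns, while Pyy, at 486 and 371 UMIs, is bright among the members in columns 1 and 2.

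The 10 cells did not share a single hormone. Cells 1 and 2, the pair with all 5 rule genes, were both from the first well and held 486 and 371 UMIs of Pyy, the enteroendocrine peptide YY, out of 16973 and 16826. They also held 62 and 75 UMIs of Chgb, 65 and 63 of Scg2, 45 and 40 of Pcsk1n, and the only Nkx2-2 UMIs of the members, 3 and 2. Their counts of these genes were close to each other. Cell 3 had 118 UMIs of Chga, 15 of the amine-synthesis enzyme Ddc and 123 of Reg3g, an antimicrobial lectin of the gut, with no Scg2.

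Cell 6 held 62 UMIs of Resp18 and 79 of Chgb without a hormone at 10 or more UMIs. Cell 7 held 205 UMIs of Iapp, the islet amyloid peptide, with 24 of Scg2 and 1 of Chga. Cell 5 had 37 Chga, 17 Resp18 and 12 Snap25 UMIs and no Chgb or Scg2. The thinnest of the 10 were cell 4 with 6333 UMIs, cell 9 with 5238 and cell 10 with 4486, and their rule genes were at most 8 UMIs each. Cell 8 differed from the others: among 49330 UMIs, the most of any member, it had 12 of Insm1 and 2 of Chga but none of Chgb, Scg2, Scg5 or St18. The name neuroendocrine-like is thus not borne out for cell 8. The next deepest multi-gene member of the second well had 16466 UMIs, so cell 8 weighs heavily on the second-well levels of the group.

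The breadth of the programme separated the multi-gene members from the 2-gene members. Of 96 neuroendocrine list genes outside the rule, the 10 cells showed a median of 30 (19 to 54), the 79 a median of 9 (1 to 24), Aire cells 9 (0 to 43), the other Aire-low cells 5 and fibroblast cells 7. At least 20 of the genes were found in 9 of the 10, in 1 of the 79 (1.27%), in 100 of the 1555 Aire cells (6.43%) and in 2 fibroblast cells (0.0883%). Cell 8, the deepest, was among the 9 with exactly 20. The 10 cells were also deeper, with a median of 15013.5 UMIs against 7675 in the 79. Thinned to 2000 UMIs, the median number of listed transcription factors per cell was 2.5 in the 10 and 1 in the 79, that of granule genes 2.5 and 0, of exocytosis genes 3.5 and 0, of excitability genes 3 and 0 and of hormone genes 1 and 1. In Aire cells the same medians were 0, 0, 1, 0 and 1. At equal depth the 10 cells thus still had more genes of the first 4 lists than either group. They were, however, chosen at full depth by rule genes of the same programme. The single 2-gene member over the limit had 37474 UMIs, with 90 of the hormone Sct, 50 of Gcg, 25 of Nts and 17 of Ins1 and none of Chgb or Scg2.

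Hormone genes were high in single cells, and few of them were called. Of 25 hormone and amine-synthesis genes compared, 1 was higher and 3 were lower in all members, and 1 was higher and 1 lower of 24 in the multi-gene members. The median gene differed by -1.29 in all members and the summed list by 1.41 and -0.52 in the wells, so median and sum differed in sign in the first well. The summed list stood 3.76 and 1.34 above Aire cells in the multi-gene members, where the median gene differed by -2.60, or by 0.80 with genes at 0 set to their bound. Iapp was the higher gene, with 351 and 384 CPM against 51.8 and 32.5 CPM (2.76 and 3.56). Of its UMIs in members, 52.7% came from cell 7 and 162 from a 2-gene member of the first well, so that each well rested on 1 cell.

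Calcb, a calcitonin-gene peptide, was lower, with 59.5 and 38 CPM in members against 248 and 220 CPM in Aire cells (-2.06 and -2.53). Ppy, pancreatic polypeptide, differed by -2.60 and -3.31 and Tph1, the enzyme of serotonin synthesis, by -2.23 and -2.69, on 5 and 3 UMIs in members. Sst had no UMI in members and was found in 76 Aire cells. Ddc was higher in the multi-gene members (4.86 and 3.19, 5 cells) and Grp, gastrin-releasing peptide, lower (-3.74 and -3.16). A hormone-list gene at 10 or more UMIs was found in 4 of the 10 (40%, 12.2 to 73.8), 5 of the 79 (6.33%, 2.09 to 14.2), 235 Aire cells (15.1%, 13.4 to 17) and 8 fibroblast cells (0.353%). High hormone counts in single cells were thus also present among Aire cells.

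Of 22 compared exocytosis genes outside the rule, 0 were called in all members and 4 were higher in the multi-gene members, where 4 others (Syt4, Syt5, Cplx1 and Napb) had no UMI. The higher ones were Cplx2, a complexin that clamps fusion (5.11 and 3.62, 7 cells), Rph3al, a granule effector of Rab proteins (3.64 and 2.38), the calcium sensor Scgn (8.49 and 2.87, 3 cells) and the vesicle protein Syp (2.51 and 2.83, 4 UMIs). The calcium sensor of fusion Syt1 had 702 and 675 CPM in the 10 cells, was found in all of them, and differed by 1.46 and 1.53, below the limit. It was found in 62.5% of Aire cells. The rule gene Snap25 was found in 20 members, as 1 UMI in each of the 10 2-gene members that had it and at 1 to 22 UMIs in the 10.

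Of 16 genes of excitability and neural RNA processing, 1 was higher in all members and 8 in the multi-gene members, with medians of 1.29 and 2.71. The 1 gene was Elavl4, a neuronal RNA-binding protein, with 9.91 and 18.1 CPM against 1.14 and 2.49 CPM (3.11 and 2.86). The splicing factor Celf3 differed in the multi-gene members by 5.30 and 3.84 and was found in 8 cells. The calcium channel subunit Cacna2d1 had 392 and 450 CPM against 31.7 and 26.3 CPM (3.63 and 4.10, 9 cells, and found in 39.4% of fibroblast cells). The pore subunit Cacna1a (3.37 and 2.57), the sodium channel Scn3a (4.41 and 3.15), and the potassium channels Kcnj11 (4.12 and 4.46) and Kcnb2 (4.64 and 2.33) were called with them, and Disp2 was the last of the 8. In the 2-gene members 0 of the 16 were called and the summed list differed by 0.02 and 0.59.

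No gene of the neuroendocrine lists outside the rule was higher in the 2-gene members. The transcription factor list differed from Aire cells by 0.27 and 0.24, the exocytosis list by -0.41 and -0.16 and the hormone list by 0.21 and -1.83, and the calls within these lists were the lower hormone-list genes Calcb, Ppy and Tph1. Chgb had 0 and 11.1 CPM in them against 13.1 and 8.33 CPM in Aire cells, and Resp18 had 122 and 224 CPM against 85.8 and 69.1 CPM. Chga, a rule gene, had 94.8 and 124 CPM against 55.4 and 32.6 CPM. Of their 12 higher genes 7 were seen in under 5 cells. Among these were the pancreatic granule protein Sycn (3.30 and 2.85, 2 cells) and the keratin Krt6a (2.79 and 4.36, 3 cells). Both were chosen for mention after their values were seen.

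**Figure D3:**
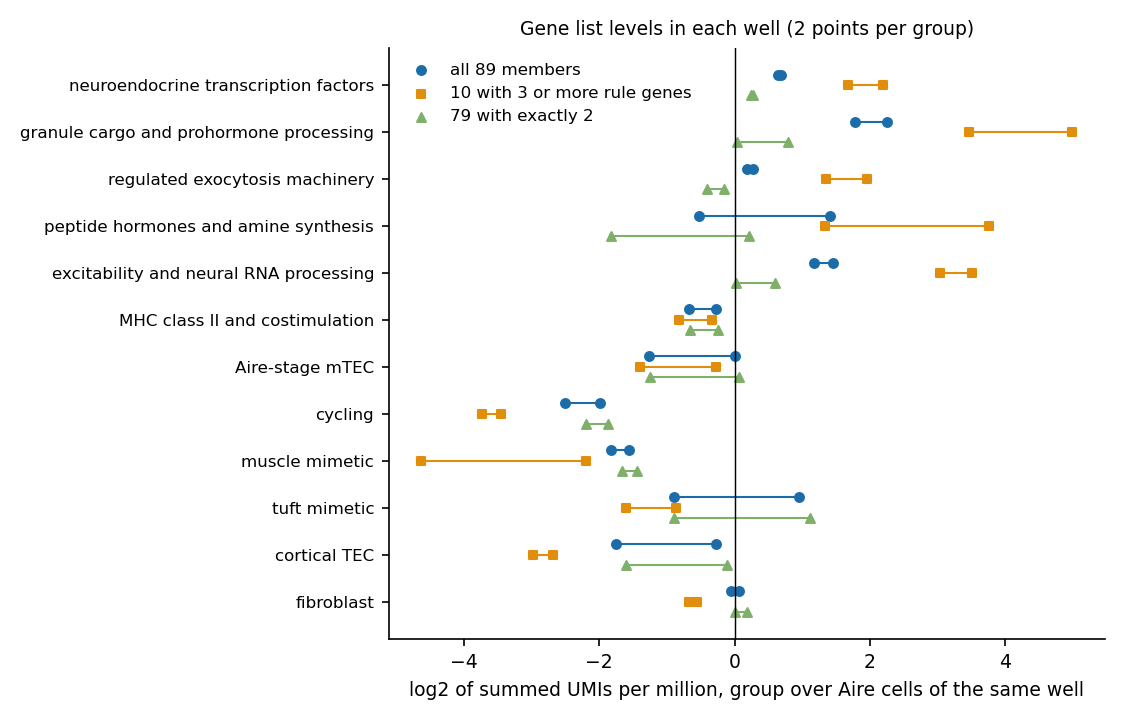
Log2 of the summed CPM of each gene list over Aire cells of the same well (x axis) for the 89 members (circles), the 10 multi-gene members (squares) and the 79 2-gene members (triangles); the 2 joined points are the 2 wells. The granule list lies at 4.99 and 3.46 in the 10 cells and at 0.04 and 0.79 in the 79. In the first well, most granule UMIs of the 10 cells came from cells 1 and 2.

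Antigen presentation genes gave no call. None of the 14 genes of MHC class II and costimulation was called in any of the 3 groups. Their summed level differed by -0.68 and -0.27 in all members and by -0.82 and -0.34 in the multi-gene members. H2-Aa had 2982 and 3431 CPM in members against 4790 and 4265 CPM in Aire cells. Among costimulation genes, Cd40 RNA differed by -1.66 and -1.22 in all members. Over both wells, Cd80 stood at 38.8 CPM in all members, 6.12 CPM in the multi-gene members (1 of 10 cells) and 53.9 CPM in Aire cells. Cd274 stood at 64.3, 104 and 100 CPM in the same order, and the class II regulator Ciita at 152, 36.7 and 195 CPM. Cd86 had 3.79 CPM in all members and 7.47 CPM in Aire cells, with no UMI in the 10 cells. The difference of the summed list took the other sign when members were set beside the other Aire-low cells instead, where the mean over wells was 0.39.

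Some genes of the Aire stage and of the cell cycle were lower than in Aire cells, which were chosen by their Aire UMIs. At least 5 genes of the Aire-stage list were found in 42.7% of members, 51.6% of Aire cells and 11.6% of the other Aire-low cells, and at least 5 of the cycling list in 2.25%, 5.66% and 0.924%, so in both lists the members' share lay between the others. The milk protein Csn2, an Aire-dependent antigen, had 101 and 118 CPM against 599 and 451 CPM (-2.57 and -1.94), just short of the limit in the second well, and was called with the protease Ctsh in the multi-gene members. The summed Aire-stage list without Aire differed by -1.27 and 0.01 in all members with 1 of 11 genes lower, so the wells were not alike. Pigr, a listed antibody transporter, stood at 146 CPM in members and 42.9 CPM in Aire cells over both wells. Of 8 cycling genes 2 were lower in all members, the ubiquitin enzyme Ube2c (5.95 and 5.43 CPM against 85 and 44.7) and the spindle protein Tpx2, and the list differed by -1.99 and -2.50. Spc25, Ncapd2, Prc1 and Aspm, which serve chromosome segregation, were among the 15 lower genes with the largest difference that at least 10% of Aire cells held. In those 15 were also Ccr7, a chemokine receptor (-3.00 and -3.16), the intestinal genes Apoa4 (-2.18 and -4.59) and Mep1a (-2.11 and -3.94), and the cartilage gene Ucma (-3.69 and -2.83). S100a8 and S100a9, proteins of neutrophils that mTEC also transcribe, were lower too (S100a8 by -2.15 and -2.21, S100a9 by -2.80 and -2.29).

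Other cell types were checked with marker lists that, like the neuroendocrine ones, were chosen with earlier results of these data known. In all members the fibroblast list differed from Aire cells by -0.06 and 0.07, the endothelial list by -0.16 and -0.24, the thymocyte list by 0.26 and -0.53 and the tuft list by 0.95 and -0.89. None of these lists had a called gene in members. The muscle list differed by -1.82 and -1.56 with 1 of 9 genes lower, and the cortical list without its rule genes by -0.27 and -1.76 with 0 of 8 called. The Ccl21a intertypical list stood at 0.97 and 0.20, the microfold list at 0.32 and -0.51 and the ciliated list at 0.85 and -0.81, each with 0 called. The keratinocyte list (-1.17 and -0.01) and the enterocyte and hepatocyte list (0.21 and -1.03) had 1 lower gene each, and the ionocyte list stood at -0.92 and 0.82 with Foxi1, Foxi2 and Ascl3 at 0. In the multi-gene members the cortical list was at -2.98 and -2.69 with 4 of 8 genes lower, among them Ccl25 and Tbata. The rule held members, but not Aire cells, below the cortical limit. A lower cortical list in members can thus come in part from the rule, and that part was not tested. The Ccl21a list was at -1.36 and -0.81 there with 2 of 10 lower, the keratin Krt5, which the epithelial rule used, and Ly6a. The ionocyte list was at 1.45 and 1.62 with the chloride channel Cftr higher (3.24 and 3.38) and 7 of its 8 genes at 0. The muscle list (-4.63 and -2.20) and the microfold list (0.71 and -0.80) had 1 lower gene each. No gene was called in the tuft (-1.60 and -0.86), enterocyte and hepatocyte (2.03 and -0.23), keratinocyte (-0.97 and 0.19), ciliated (0.47 and -0.07), fibroblast (-0.68 and -0.55), endothelial (-0.24 and -3.38) and thymocyte (2.25 and -0.94) lists.

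Further genes named by rule among those higher in members were each seen in at least 10 members, with at most 50% of their UMIs from 1 cell. Besides Chgb, St18 and Elavl4 these were Gm609 (4.89 and 3.35), the long RNAs A230057D06Rik (3.02 and 3.06) and A330076H08Rik (3.16 and 2.89), Gnao1, a neuronal G-protein subunit (2.93 and 2.52), Naip5, an inflammasome sensor (2.23 and 2.37), and Rundc3a (2.02 and 2.43). A230057D06Rik and A330076H08Rik lie next to each other on the minus strand of chromosome 7. The multi-gene members gave a median of 53.3% of the UMIs of the 41 higher genes, while they were 11.2% of the members and held 15.5% of their UMIs. In 21 of the 41 genes they gave over 50%.

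Car8 (ENSMUSG00000041261, minus strand, chr4:8143362-8239041 on GRCm38), a carbonic anhydrase relative without enzyme activity, was in none of the lists. It was found in all 10, with 71 and 52 UMIs in the wells, and in 4.63% of Aire cells. Its level was 1159 and 509 CPM against 52.6 and 8.26 CPM, a log2 difference of 4.46 and 5.95 (counting interval of the pooled value 4.85 to 5.44). Only 4 of the 293 higher genes were found in all 10 cells: Car8, Pam and the rule genes Chga and Snap25. The gene of the giant muscle protein Ttn was among the 50 lower ones, with 1 UMI in the 10 cells and detection in 35.4% of Aire cells.

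Among the surface tags, CD9 differed most from Aire cells in the multi-gene members. CD9 is a tetraspanin, a membrane protein that organises others. A tag level is the count scaled to equal ADT totals per cell, as log2(scaled count + 1), averaged over the cells of a group in a well, and a call is a difference of 0.5 or more in both wells. Of 27 tags 2 were higher (7.41%) and 1 lower (3.7%) in all members. In the multi-gene members 3 were higher (11.1%) and 5 lower (18.5%). The tags the results turn on were read by these barcodes, in which every base counts; UEA1 is a biotinylated lectin read through a streptavidin-PE oligonucleotide, and CD54, CD40 and MHCII name antibodies to the adhesion protein ICAM1, the costimulatory receptor and class II.
CD9: TAGCAGTCACTCCTA
UEA1: AACCTTTGCCACTGC
Epcam: ACCCGCGTTAGTATG
CD54: ATAACCGACACAGTG
CD40: ATTTGTATGCTGGAG
MHCII: GGTCACCAGTATGAT

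The CD9 tag had a level of 4.89 and 4.09 in members and 3.14 and 3.22 in Aire cells, a difference of 1.75 and 0.87. In the multi-gene members it was 8.42 and 6.25, a difference of 5.28 and 3.03 (mean 4.15, SD 1.59, n = 2). Raw counts of the tag were 1696, 772, 519 and 206 in cells 1 to 4 of the first well. In cells 5 to 10 of the second well they were 804, 60, 48, 16, 173 and 277. The lowest was cell 8, at a scaled level of 1.51. Cell 8 had few granule genes, but so did cell 10, without Chgb, Resp18 or Scg5, and its scaled level was 8.74.

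Over the 95th percentile of Aire cells of the same well (6.44 and 6.58) lay 6 of the 10 cells (60%, 26.2 to 87.8), 9 of the 79 (11.4%, 5.34 to 20.5) and 246 of the other Aire-low cells (10.3%, 9.14 to 11.6). Of the 7 Aire cells with at least 4 rule genes, 4 lay over it (57.1%, 18.4 to 90.1). The 2-gene members thus lay close to the other Aire-low cells. The tag is not particular to epithelium: 950 fibroblast cells (42%) lay over the same limit, though on a median of 361.5 and 260.5 tag counts in all per cell. Cd9 RNA had 796 CPM in the 10 cells and 324 CPM in Aire cells (2.09 and 0.47; counting interval of the pooled value 1.04 to 1.55).

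**Figure D4:**
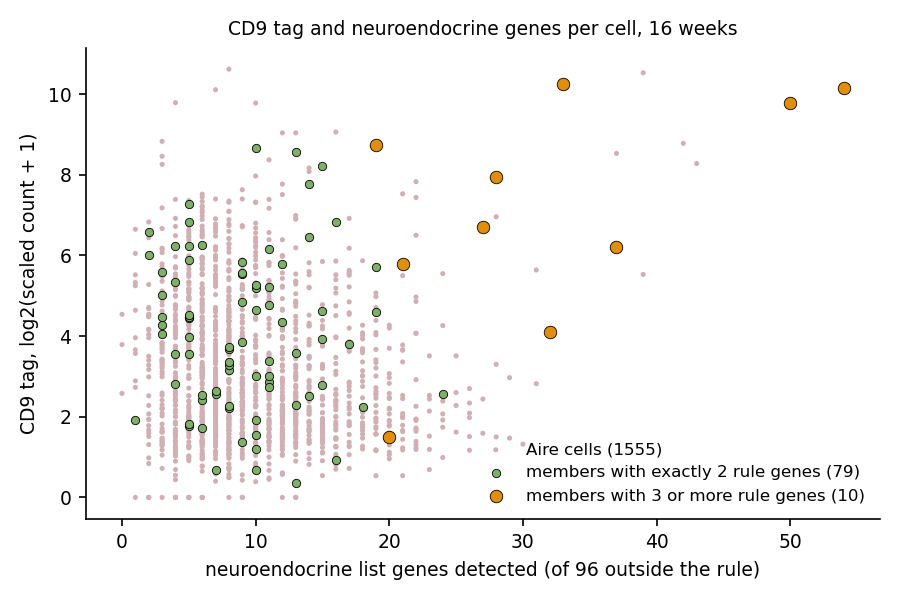
CD9 tag level, log2(scaled count + 1) (y axis), against the number of the 96 neuroendocrine list genes outside the rule found in a cell (x axis), for Aire cells (small points), the 79 2-gene members (green) and the 10 multi-gene members (orange) of both wells. Of the 10 orange points 9 lie at 20 or more genes, and their tag levels run from 1.51 to 10.24.

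The UEA1 tag, which marks mTEC, was at 10.60 and 10.56 in the multi-gene members and 9.33 and 9.44 in Aire cells (1.27 and 1.12), and the Epcam tag differed by 1.06 and 0.73. Epcam RNA differed by 0.15 and 0.12. CD54 was lower (-1.89 and -1.37), as were CD40 (-1.18 and -1.73), the tetraspanin CD63 (-1.60 and -0.80), MHCII (-0.80 and -0.89) and CD200 (-0.68 and -0.54). In the RNA of the 10 cells Icam1 differed by -2.64 and -0.97. The 10 cells thus carried more UEA1 and Epcam tag, and less class II, CD40 and CD54, than Aire cells.

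In all members the second higher tag was Sca1, the product of Ly6a, at 6.66 and 6.82 against 5.87 and 6.05 (0.79 and 0.77), and the lower tag was CD40 (-0.60 and -0.74). The Sca1 difference was 0.25 with centred log-ratio values, and against the other Aire-low cells Sca1 was lower in members (-1.40 and -1.30). Against those cells neither CD9 (0.28 and -0.30) nor CD40 (-0.21 and -0.18) was called in the 89 members. In the multi-gene members Sca1 was not called (0.75 and -0.18) while Ly6a RNA was lower (-2.04 and -2.18). Members had fewer tag counts per cell than Aire cells, with medians of 3545 and 3998 against 10352 and 7056, and the part of these totals in the tag differences was not tested. With centred log-ratio values in place of equal totals, the CD9 difference of the multi-gene members was 4.33.

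**Figure D5:**
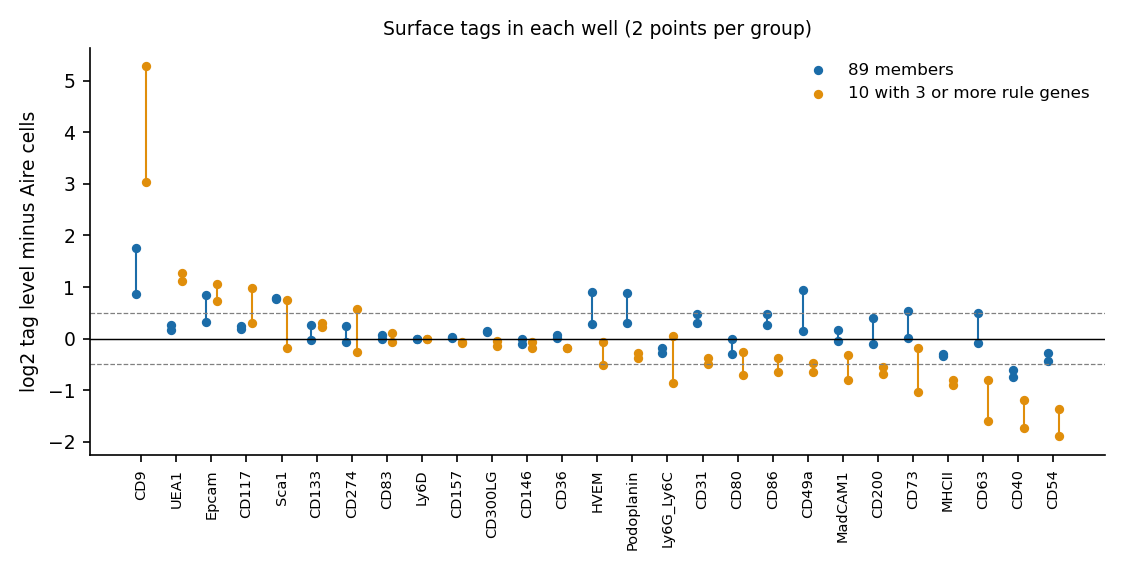
Difference in tag level from Aire cells of the same well (y axis, log2) for each of the 27 tags (x axis, UEA1 and HVEM by their reagent names) in the 89 members (blue) and the 10 multi-gene members (orange); the 2 joined points are the 2 wells and dashed lines mark 0.5. CD9 stands apart at 5.28 and 3.03 in the 10 cells, and CD54 is at the lower end with -1.89 and -1.37.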

How the data were processed

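The deposited tables held counts: the authors aligned the 10x libraries with STARsolo 2.7.9a to mm10 with Ensembl 102 genes and gave whole-number UMI counts of 55487 gene IDs and 27 tags in 9953 cells, without normalization. The labels name a 3' v2 kit and the methods a v3 kit. Of the gene IDs, 346 had no name (0.031% of UMIs). No map of cells to animals was used. UMIs were summed per group and well and set to CPM, and genes were called at 4-fold in both wells with at least 20 UMIs. The floor for 0 was 3 counts. Named genes were the listed genes plus, per direction, up to 15 called genes of largest difference found, for higher genes, in at least 10 members with at most 50% of the UMIs from 1 cell and, for lower genes, in at least 10% of Aire cells. A few genes are not reported here. The members and all lists were chosen with earlier results of these data known. Scripts used Python 3.11.15, numpy 2.4.6, scipy 1.17.1, pandas 2.3.3, scanpy 1.11.5 (Scrublet), and R 4.3.3 with edgeR 4.0.16 and DESeq2 1.42.0 for scaling factors only. Intervals were exact binomial, and gene ratios conditional binomial. Scrublet's own limit marked 4 of 6677 cells and was set aside; as an alternative the highest scores, 0.8% per 1000 cells, were left out.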

Additional observations from a re-analysis of the deposited data

Results flagged for a closer look

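Of Chga-rich cells, 5 with at least 100 UMIs of Chga and no other rule gene lay outside the members, and 4 of these met the Aire-low epithelial rule. They held 18402 UMIs of Pth, parathyroid hormone, with 4904 of Chga, 11 of Gcm2 and 13 of Casr, and no Insm1, Snap25 or Scg2. They stood out because they are no members although each has more Chga than any member. The 4 are counted among the other Aire-low cells above. Pth UMIs per Chga UMI were 3.75 in these cells, 3.04 in fibroblast cells and 1.61 in Aire cells. The ratio was 0.561 in the 2-gene members and 0.0373 in the multi-gene members. Because Chga is a rule gene, the choice of members itself lowered their ratio, and nothing is drawn from it. A Pth UMI was found in 37.5% of fibroblast cells, 47.8% of Aire cells and 40.4% of members. The share was 39.3% in the other Aire-low cells without the Chga-rich ones.

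There were 7 Aire cells with at least 4 rule genes, which the Aire limit keeps out of the members. They showed a median of 39 of the 96 list genes (21 to 43), and their CD9 tag levels ran from 0.54 to 10.53, with 4 of the 7 over the 95th percentile of Aire cells.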

How the results depend on the processing

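No paired analysis was possible because the results come from no test and the wells of an age are 1 pool. With 1 well left out, members numbered 37 to 52, their share 1.74 to 3.04%, higher genes 160 to 182, lower genes 361 to 391, the granule list 1.78 to 2.25, the MHC class II list -0.68 to -0.27 and called tags 3 to 8. With at least 3 rule genes there were 10 members (0.238%), 293 higher genes, a granule level of 4.23 and 8 tags. With Aire at 0 UMIs there were 43 members (1.02%), 88 higher and 41 lower genes, a granule level of 2.55 and 5 tags. Against the other Aire-low cells there were 152 higher and 23 lower genes, a granule level of 2.87, 8 tags and an MHC class II level of 0.39, the 1 value that changed sign. Means over cells gave 65 higher genes, a minimum of 50 UMIs 20, and a 2-fold limit 375 higher and 452 lower. The 2-gene members alone, an alternative added after the data were seen, gave 12 higher genes and a granule level of 0.42. Resp18 was in 16.9% of members after thinning to 2000 UMIs. The cause of these shifts was not tested. The other values, among them those without the highest doublet scores (87 members, 37 higher and 73 lower genes) and with TMM (35 and 77) or DESeq2 factors (38 and 70), stayed within 1.5 times or 1 SD. Beyond each gene's 4-fold call, the counting interval cleared 0 in each well for 30 of the 41 higher and 62 of the 70 lower genes of all members, 142 of 293 and 41 of 50 of the multi-gene and 7 of 12 and 39 of 54 of the 2-gene members. The number of cells is a limit for the multi-gene members, whose 293 higher genes rest on 4 and 6 cells.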
